A study of Mus musculus with 12 samples.

Results

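Marker miRNAs of other cell lineages were followed in immortalized mouse macrophages before and after bacterial lipopolysaccharide (LPS). The set was chosen by name and not by level: a mouse probe was a member when its name, without the species prefix and with or without an arm, was one of 50 listed names. Of these names 48 had a probe and 2 (miR-215 and miR-199b) had none under that name, which gave 55 member probes of the 566 mouse miRNA probes and 626 probes in all. The members fell into 12 lineage groups: 7 epithelial probes, 2 of gut, liver and kidney epithelium, 1 of the endocrine pancreas, 2 endothelial, 5 mesenchymal or smooth muscle, 2 lying in Hox clusters, 7 of striated muscle, 1 of hepatocytes, 8 neural, 1 lymphocyte, 3 erythroid and 16 of pluripotent cells.

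The study measured mature miRNAs with a NanoString panel, in which barcoded probes are counted one molecule at a time after a tag is ligated to each miRNA. The cells, labelled IMM, are a permanent macrophage line grown in serum-containing medium, and all groups come from this line. LPS, an outer membrane lipid that macrophages sense through the receptor Tlr4, was given at 100 ng/mL, and cells were collected after 30, 60 and 120 min. Unstimulated cells (0 min) were the control of all 3 later times, and each time had 3 biological replicates, 12 samples in all.

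A miRNA is a short RNA that guides the silencing machinery to messenger RNAs through its seed, bases 2 to 8 from the 5′ end. Many miRNAs are made in almost every cell, but some are strongly restricted to 1 lineage, often because they are transcribed with lineage genes: the miR-200 family in epithelia, miR-126 from the Egfl7 gene in endothelium, miR-208a, miR-208b and miR-499 from introns of muscle myosin genes, miR-122 in hepatocytes, miR-124 in neurons, and the miR-290 to miR-295 cluster and the miR-302 cluster with miR-367 in embryonic stem cells. Such miRNAs are used to tell which cell types a sample holds, and macrophages are instead known for miR-223 and miR-142.

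The sequences of the members on which the results turn are shown with the seed in capitals, from RefSeq on build GRCm38.p6. A RefSeq mature miRNA of the same name existed for 39 of the 55 members and was missing for 16, 2 of which are shown under the RefSeq names miR-126a-3p and miR-292a-5p. MiR-199a-3p is shown beside miR-199b-3p because their letters do not differ (0 differing bases), so that a probe for this sequence reads both.
miR-199a-3p: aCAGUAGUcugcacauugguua
miR-199b-3p: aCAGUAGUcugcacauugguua
miR-199a-5p: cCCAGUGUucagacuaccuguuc
miR-126a-3p: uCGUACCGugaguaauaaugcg

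MiR-199a is encoded by Mir199a-2 (3p arm at chr1:162217883-162217904, plus strand) and Mir199a-1 (chr9:21496498-21496519, minus strand), miR-199b by Mir199b (chr2:32318524-32318545, plus strand) and miR-126a-3p by Mir126a (chr2:26591402-26591423, plus strand). The miR-200 family is shown because its 5 members split by 1 seed letter. MiR-200b, miR-200c and miR-429 share the seed AAUACUG, miR-200a and miR-141 share AACACUG, and miR-200b and miR-200c differ at 3 bases.
miR-200b-3p: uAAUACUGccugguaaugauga
miR-200c-3p: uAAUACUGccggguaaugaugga
miR-429-3p: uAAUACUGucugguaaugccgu
miR-200a-3p: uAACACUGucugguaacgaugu
miR-141-3p: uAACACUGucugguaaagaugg

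The genes of miR-200b (chr4:156055685-156055706), miR-200a (chr4:156054911-156054932) and miR-429 (chr4:156053916-156053937) lie together on the minus strand, and those of miR-200c (chr6:124718324-124718346) and miR-141 (chr6:124717917-124717938) form the other cluster, also on the minus strand. The muscle and stem cell members that were above the floor only at 120 min are shown with their nearest relatives. The panel names miR-208b and miR-293 without an arm, so both arms are given. MiR-208b-3p (chr14:54975710-54975731, minus strand) and miR-208a-3p share a seed and differ at 3 bases, and miR-292a-5p (chr7:3219200-3219221, plus strand) and miR-293-5p (chr7:3220356-3220377, plus strand) share the seed CUCAAAC.
miR-208b-3p: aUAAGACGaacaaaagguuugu
miR-208b-5p: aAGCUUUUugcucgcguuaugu
miR-208a-3p: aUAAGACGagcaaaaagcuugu
miR-292a-5p: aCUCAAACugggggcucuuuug
miR-293-5p: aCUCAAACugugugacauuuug
miR-293-3p: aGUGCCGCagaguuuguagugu
miR-294-3p: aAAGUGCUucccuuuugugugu

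The deposited values are called signal here. Each sample's signal was whole counts multiplied by 1 factor, and dividing by the factor (0.748 to 2.26) gave back the counts. Low entries stood at 20, called the floor. No value over the floor was under 20 counts, so an entry could be floored at a signal above 20. The sum ran from 138655 counts in 0 min replicate 1, the sample with the largest factor, to 365403 in 120 min replicate 1. A miRNA is called above background in a sample when its counts exceed the highest of the 8 negative controls there (24 to 36 counts). A floored entry can hide up to 45.3 signal units in 0 min replicate 1 and up to 26.3 in the other samples. The added ligation controls, read per 1000 counts of the positive controls, ran from 142 to 293.1 at 0 min and from 384 to 529 in the stimulated samples, so this technical measure moves with LPS. Its part in the results was not tested.

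The macrophage label was checked against myeloid miRNAs. MiR-223 averaged 974 ± 302.3 signal units (SD, n = 12), miR-142-3p 8873 ± 4801, miR-142-5p 109 ± 33.7, miR-146a, an LPS-induced regulator of inflammatory signalling, 3684 ± 1800, and miR-21 376 ± 164. All 5 were above background in 12 of 12 samples.

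Most marker miRNAs of other lineages were at or near background. Of the 55, 29 (52.7%) were floored in all 12 samples, against 263 of 566 mouse miRNAs (46.5%) and 19 of 33 herpesvirus miRNA probes (57.6%), which have no source in uninfected mouse cells. For these 29 a level was not detectable at this depth. Another 9 (16.4%, against 13.3% of all mouse miRNAs) lay over the floor in some sample but never over the negative controls, 14 (25.5%, against 21%) were above background in 1 to 11 samples, and 3 were above background in all 12 (5.45%, against 109 of 566 mouse miRNAs, 19.3%, and 0 of 33 herpesvirus probes). Together the 55 members held between 0.493% and 0.641% of a sample's mouse miRNA counts, with floored entries left out. In such bulk RNA, few cells of another type and a low level in every cell cannot be told apart.

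**Figure D1:**
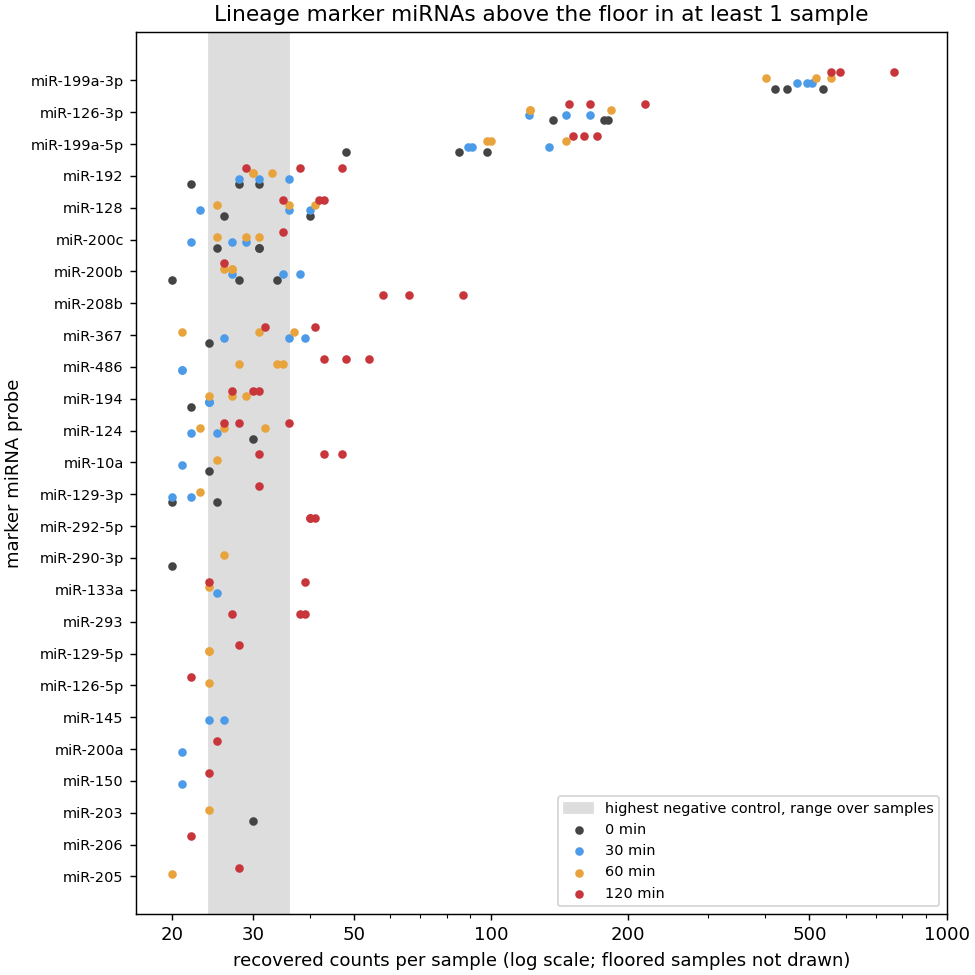
Recovered counts (log scale) of the 26 marker miRNAs that lay above the floor in at least 1 of the 12 samples, 1 point per sample, coloured by time of LPS, with the range of the highest negative control (24 to 36 counts) in grey. MiR-199a-3p, miR-126-3p and miR-199a-5p lie right of the grey band, and most other markers lie in it or left of it, with miR-208b at 58 to 87 counts at 120 min.

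The mesenchymal group held 2 of the 3 markers above background everywhere. MiR-199a-3p, which with miR-214 is made from the Dnm3os transcript of mesenchymal cells, had a signal of 953, 463 and 380 in the 3 samples at 0 min, 585, 504 and 558 at 30 min, 539, 527 and 494 at 60 min, and 841, 446 and 436 at 120 min. Its counts were 421, 535 and 447 at 0 min and 768, 559 and 583 at 120 min, far above the negative controls. Because of the shared letters the level may be that of miR-199a-3p, miR-199b-3p or both. Replicate 1 was the high sample at 0 and at 120 min, and the groups overlapped at every time.

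MiR-199a-5p, the other arm of the same precursor, had a signal of 109, 84.8 and 72.2 at 0 min, 108, 88.5 and 159 at 30 min, 152, 128.8 and 88.4 at 60 min, and 165, 127.6 and 127.97 at 120 min. The 3 samples at 120 min were all above the 3 at 0 min, while those of 30 and 60 min overlapped them. It was the single marker of the 7 tested with such a separation, which 34.9% of the 166 tested mouse miRNAs had at 120 min, 18.1% at 60 min and 15.7% at 30 min. The counts were 48, 98 and 85 at 0 min and 151, 160 and 171 at 120 min. The remaining mesenchymal and smooth muscle members were not above background in any sample: miR-143, the contractile smooth muscle miRNA, and miR-214, the cluster partner of miR-199a, were floored in all 12 samples, and miR-145, the cluster partner of miR-143, reached 26 counts at most.

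MiR-126-3p, which sustains VEGF signalling in endothelial cells, was the third marker above background in every sample. Its signal was 310, 157 and 150 at 0 min, 173, 164 and 143.7 at 30 min, 191, 160 and 108 at 60 min, and 239, 118 and 123 at 120 min, and its counts were at least 121 in every sample. Replicate 1 was the highest sample at each time, and all groups overlapped. Its partner arm miR-126-5p was floored in 10 samples and held 24 counts at most.

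In CPM (counts per 1000000 mouse miRNA counts), a share that does not use the housekeeping factor, miR-126-3p read 1194, 1045 and 1173 at 0 min, 778, 995 and 679 at 30 min, 838, 639 and 665 at 60 min, and 696, 586 and 657 at 120 min. All 9 stimulated samples were below the 3 samples of 0 min. At 120 min 26.6% of the 109 mouse miRNAs above background in all samples were separated in this direction, at 60 min 18.3% and at 30 min 22%. MiR-199a-3p read 3669, 3090 and 2964 at 0 min and 2452, 2214 and 2323 at 120 min, without overlap, and overlapped the 0 min samples at 30 and 60 min. MiR-199a-5p averaged 516 ± 84.6 CPM at 0 min and 599 ± 104 at 120 min (SD, n = 3), with overlap. Such a share also falls when other miRNAs rise, and the 2 cannot be told apart.

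**Figure D2:**
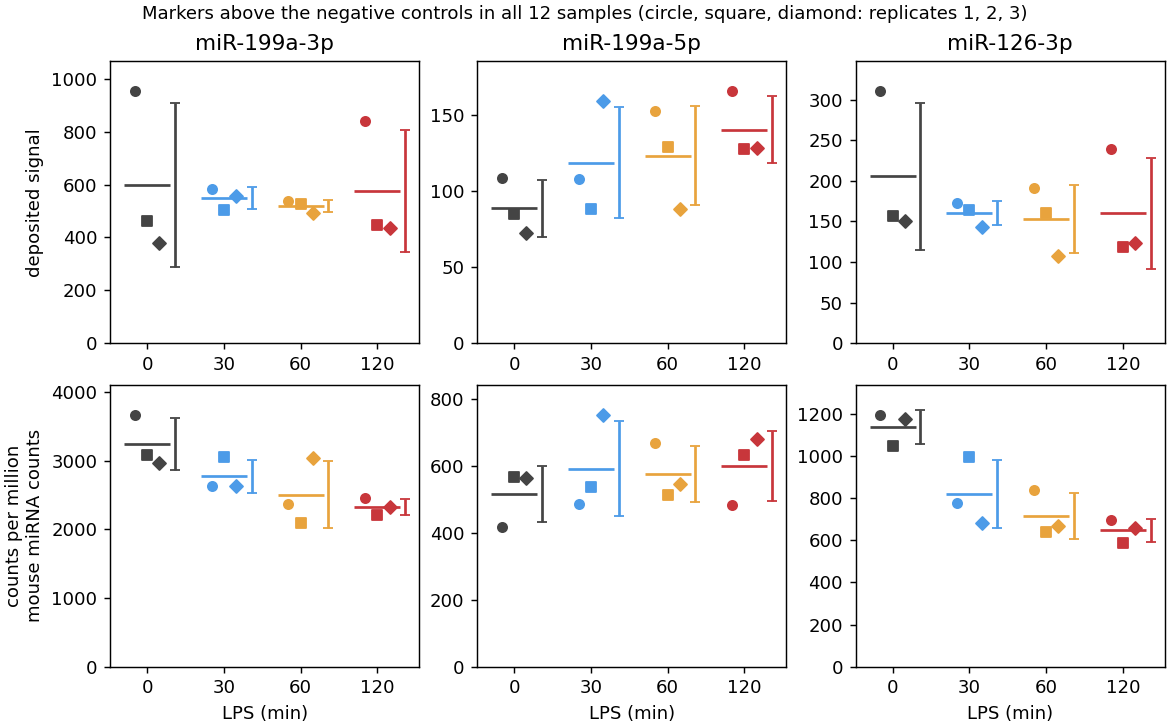
The 3 markers above background in all 12 samples by minutes of LPS, as deposited signal (upper row) and as CPM (lower row); each point is 1 sample, horizontal lines are group means and bars 1 SD (n = 3). The signal of miR-126-3p overlaps between all times, while its share lies at 1045 to 1194 CPM at 0 min and at 586 to 696 at 120 min.

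The epithelial markers were close to background. MiR-200b, which holds cells in the epithelial state by repressing Zeb1 and Zeb2, had a signal of 45.3, 24.2 and 28.9 at 0 min, 45.1, 26.8 and 41.6 at 30 min, 28.2, 34.2 and 23.9 at 60 min, and 28.5, 20 and 20 at 120 min. It was above background in 4 of 12 samples and its counts lay between 20 and 38. MiR-200c, of the same seed, had 56.6, 26.8 and 26.3 at 0 min, 32.0, 28.8 and 26.1 at 30 min, 32.4, 38.1 and 22.1 at 60 min, and 38.4, 20 and 20 at 120 min, with 22 to 35 counts and 4 samples above background. Both were floored in replicates 2 and 3 at 120 min. The 45.3 of miR-200b in 0 min replicate 1 stands for 20 counts, where the highest negative control was 32 counts.

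The rest of the miR-200 family and the keratinocyte miRNAs gave little. MiR-429 and miR-141 were floored in all 12 samples. MiR-200a and miR-205, an epithelial progenitor miRNA, were each floored in 10 samples and never above background, and miR-203, which drives keratinocyte differentiation, was above background in 1 sample with 30 counts.

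Of the gut, liver and kidney pair, miR-192, a p53-regulated miRNA of these epithelia, had a signal of 49.8, 24.2 and 26.3 at 0 min, 42.7, 27.8 and 36.8 at 30 min, 31.3, 43.4 and 26.5 at 60 min, and 51.5, 23.1 and 28.4 at 120 min. It was never floored and was above background in 8 of 12 samples, with 22 to 47 counts. Its cluster partner miR-194 was floored in 2 samples and above background in 1, with 22 to 31 counts. MiR-375, which restrains insulin release in pancreatic beta cells, and miR-122, the main miRNA of hepatocytes, were floored in all 12 samples.

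Among the neural members miR-128 gave most values. This miRNA, abundant in neurons and known to dampen their excitability, had a signal of 20, 34.6 and 22.1 at 0 min, 47.5, 35.8 and 27.3 at 30 min, 42.8, 47.3 and 22.1 at 60 min, and 46.0, 27.9 and 32.2 at 120 min. It was above background in 8 of 12 samples, once at 0 min and in all 3 samples of 120 min, with 23 to 43 counts. MiR-124, which promotes neuronal differentiation, was above background in 3 samples (22 to 36 counts), and both arms of miR-129 in none. MiR-137, miR-138, miR-218 and miR-219, the last a miRNA of oligodendrocytes, were floored in all 12 samples.

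The blood lineage members were also low. MiR-150 of mature lymphocytes lay over the floor in 2 samples and never above background. MiR-451 and miR-144, made together in red cell precursors, were floored in all 12 samples. MiR-486, the third erythroid member, is described with the probes that appeared late. Of the Hox-linked pair, miR-10b was floored throughout, and miR-10a was floored in 6 samples and above background in 2, both at 120 min (47 and 43 counts).

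On the deposited scale none of the tested markers passed the test after LPS. Of the 55 members 7 passed the filter on low signal, a mean above 30.5 (2 SD over the mean of the negative controls), as did 166 mouse miRNAs in all. Just inside it were miR-200b (mean 30.6) and miR-200c (30.6), and just outside miR-208b (30.3). With limma and Benjamini-Hochberg adjustment over the 166 miRNAs, 0 of the 7 passed an adjusted p of 0.05 at 30, 60 or 120 min, and 0 had an unadjusted p under 0.05. Over all 166 tested miRNAs 3.01% were higher at 30 min, 10.8% at 60 min and 21.7% at 120 min, and 0% were lower at each time. The 3 comparisons share the 0 min samples.

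MiR-199a-5p came nearest, with a log2 change ± SE of 0.39 ± 0.38 at 30 min, 0.46 ± 0.38 at 60 min and 0.67 ± 0.38 at 120 min (limma adjusted p = 0.731, 0.471 and 0.176). MiR-199a-3p stood at -0.01, -0.09 and -0.01, and without 0 min replicate 1 at 0.39, 0.31 and 0.38. MiR-126-3p stood at -0.28, -0.38 and -0.35. The difference between the changes of the 2 arms of miR-199a was not tested. All limma standard errors on this scale were 0.38.

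Of the 4 members near background 0 passed. MiR-128 stood at 0.52, 0.50 and 0.46 at the 3 times, miR-192 at 0.15, 0.06 and 0.03, miR-200b at 0.22, -0.15 and -0.47, and miR-200c at -0.24, -0.18 and -0.45. Over the 7 markers the median log2 change at the 3 times was 0.15, -0.09 and -0.01, against 0.28, 0.43 and 0.57 over all 166. The set of 7 passed partly through its own signal, so these medians describe it and carry no test.

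The direction of these changes depended on how samples were scaled. When each sample was rescaled so that its 100 most abundant miRNAs had the same geometric mean, a choice that sets the median of all 166 near 0 (-0.06, -0.03 and -0.06), some markers passed as lower and 0 as higher. At 30 min 0 of 7 passed the limma test as lower (0.602% of all tested), at 60 min 4 of 7 (19.9%) and at 120 min 5 of 7 (27.1%). Among the 4 and the 5 were miR-200b and miR-200c, which high values at 0 min helped admit to the filter. Their calls as lower rest in part on that filter. As higher 0%, 11.4% and 14.5% of all tested passed.

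MiR-126-3p, far above the negative controls, was among the markers that passed as lower. Under this scaling its log2 change ± SE reached -0.62 ± 0.16 at 30 min (limma adjusted p = 0.0719), -0.85 ± 0.16 at 60 min (0.00368) and -0.99 ± 0.16 at 120 min (0.000707). The calls at 60 and 120 min held when any 1 sample was left out, with changes of -0.95 to -0.76 and -1.06 to -0.91. MiR-199a-3p was lower by the same test, at -0.56 ± 0.17 at 60 min (adjusted p = 0.0303) and -0.65 ± 0.17 at 120 min (0.0111). Its 60 min call was lost without replicate 1 or 2 of 0 min or replicate 1 or 2 of 60 min (adjusted p = 0.12, 0.0557, 0.0977 and 0.125), and its 120 min call held without any 1 sample (highest adjusted p = 0.0468). MiR-199a-5p stood at 0.05, -0.01 and 0.04.

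The calls of the low markers under this scaling were lost with a common floor. High values at 0 min had helped admit miR-200b and miR-200c to the filter. MiR-200b stood at -0.61 at 60 min and -1.09 at 120 min, miR-200c at -0.64 and -1.06, and miR-192 at -0.59 at 120 min, each past the limma threshold. With all samples raised to the highest value that a floor could hide (40.1 after scaling), their changes at 120 min were -0.07, -0.13 and -0.07 (limma adjusted p = 0.446, 0.22 and 0.337). That floor lies over most of their scaled values, so this fit could show little of a change. Only miR-126-3p and miR-199a-3p then passed as lower at 60 and 120 min, 2 of 7, against 16.9% and 18.7% of all 166. At 30 min miR-126-3p alone passed (limma adjusted p = 0.0425, 7.83% of all tested). As higher 0 markers passed, and 2.41%, 13.3% and 12% of all tested.

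Scaling to the ligation controls instead gave 5 of 7 markers lower at each time, where 49.4%, 31.3% and 19.3% of all 166 tested miRNAs were lower at 30, 60 and 120 min. As higher 0 markers passed, and 1.2%, 4.22% and 13.3% of all tested. The 5 were miR-126-3p, miR-199a-3p, miR-192, miR-200b and miR-200c, and miR-126-3p stood at -1.10, -1.14 and -0.98. High values at 0 min helped admit miR-200b and miR-200c. With the count filter and a common floor (51.5) added, miR-126-3p still passed limma at each time (adjusted p = 0.0125, 0.0155 and 0.0235). MiR-199a-3p passed at 30 and 60 min (0.0396 and 0.0469) but not at 120 min (0.141). MiR-200c (-0.11), miR-192 (-0.045) and miR-200b (0) did not pass, with most values under that floor. This control was itself unequal between the groups, and the median of all 166 was -0.53, -0.33 and -0.05.

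**Figure D3:**
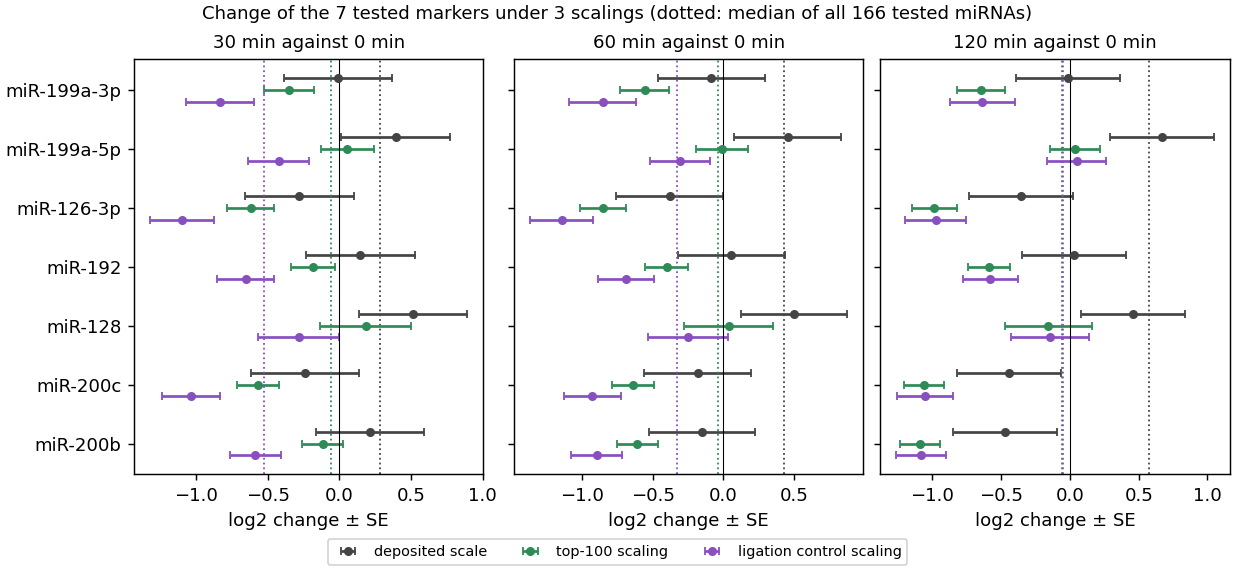
Log2 change ± SE (limma) of the 7 tested markers at 30, 60 and 120 min against 0 min on the deposited scale and with either other scaling; dotted lines are the median of all 166 tested miRNAs on each scale. On the deposited scale the markers lie around 0, and under both other scalings miR-126-3p, miR-199a-3p and the miR-200 pair lie on the lower side at 120 min, near -0.99, -0.65 and -1.09 to -1.06 under top-100 scaling.

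A few markers left the floor only late after LPS. They fell outside the rule that chose which markers to describe in full, and were picked after their values were seen. Floored in all 3 samples of 0 min and above the floor in all 3 of 120 min were 4 of 55 members (7.27%), against 23 of 566 mouse miRNAs (4.06%) and 2 of 33 herpesvirus probes (6.06%). The reverse pattern occurred in 0 members. Floored in all 9 earlier samples were 3 of these members (5.45%), against 6 mouse miRNAs (1.06%) and 1 herpesvirus probe (3.03%).

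MiR-208b, made from an intron of the slow myosin gene Myh7 in heart and slow skeletal muscle, was floored in all 9 samples up to 60 min. At 120 min its signal was 72.3, 46.2 and 65.1, from 66, 58 and 87 counts, where the highest negative controls were 33, 24 and 28. These 3 values exceeded anything the floor could hide at 0 min (45.3), which held for 5 of 566 mouse miRNAs (0.883%). Set against the floor bounds, the mean at 120 min was at least 2.12-fold higher than at 0 min on the deposited scale, at least 1.47-fold under top-100 scaling and at least 1.46-fold under ligation control scaling. The lowest value at 120 min lay over the highest bound of 0 min under top-100 scaling (42.2 against 40.1). Under ligation control scaling it lay under that bound (48.0 against 51.5), so the separation did not hold there. Against 60 min it was at least 2.72-fold, 2.42-fold and 2.99-fold higher.

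The fit gave miR-208b a call that rests on the filter and the floor. With a filter on counts instead (above background in at least 3 samples, 185 miRNAs, 13 of 55 members), limma put it 1.54 log2 units higher at 120 min (adjusted p = 0.000534), where 23.2% of all tested were higher. MiR-208b entered this filter through its 3 samples of 120 min alone, so it had to differ there and the call carries no weight. At 30 and 60 min 0 of the 13 members passed (2.7% and 8.65% of all tested), and as lower 0 passed at any time (0%). With every sample raised to a floor of 45.3 the change was 0.40 (adjusted p = 0.103), and after top-100 or ligation control scaling with a common floor 0.30 and 0.18 (adjusted p = 0.135 and 0.342).

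The other striated muscle members did not follow. MiR-208a, which shares the seed and is made from the heart myosin gene Myh6, and miR-499, from Myh7b, were floored in all 12 samples. So were miR-1 and miR-133b. MiR-206 of skeletal muscle reached 22 counts in 1 sample of 120 min, and miR-133a was above background in 1 sample of 120 min (39 counts).

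MiR-486, made in red cell precursors and in muscle from the Ank1 locus, was floored at 0 min and stood at 24.9, 20.9 and 20 at 30 min, 35.5, 36.8 and 30.9 at 60 min, and 52.6, 34.3 and 40.4 at 120 min. Its counts at 120 min were 48, 43 and 54. With the count filter it was 1.03 log2 units higher at 120 min (limma adjusted p = 0.024), but of the 4 samples that admitted it 3 were those of 120 min, so this call carries no weight either. The call was lost without replicate 2 or 3 of 0 min or replicate 1 of 120 min (adjusted p = 0.0888, 0.0766 and 0.063) and with a common floor (0.07, adjusted p = 0.413). It was lost too with top-100 or ligation control scaling and a common floor (0.01 and 0, adjusted p = 0.664 and 1). These common floors lie over most or all values of miR-486, so the fits could show little of a change.

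The stem cell members split in the same way between a few late values and many floored ones. MiR-292-5p was floored in the 9 earlier samples and stood at 44.9, 31.9 and 29.9 at 120 min (41, 40 and 40 counts), and miR-293 of the same cluster at 42.7, 21.5 and 28.4 (39, 27 and 38 counts). With the count filter their changes at 120 min were 0.78 and 0.55 (limma adjusted p = 0.0836 and 0.237). Both entered that filter through the 3 samples of 120 min alone. With a common floor of 45.3 both changes were 0 (adjusted p = 1), which was fixed in advance because no value of either probe reached that floor. MiR-290-3p lay over the floor in 2 samples and never above background. MiR-290-5p, miR-291a, miR-291b, miR-294, miR-295 and miR-292-3p of this cluster, and miR-302a to miR-302d, were floored in all 12 samples. MiR-367, encoded beside miR-302, was above background in 5 samples, 0 of them at 0 min, with 21 to 41 counts.

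More markers were above background at 120 min than before, but by the floor this held for replicate 1 alone. There were 3, 7 and 8 members above background in the 3 samples of 0 min, 6, 7 and 5 at 30 min, 5, 6 and 4 at 60 min and 11, 13 and 11 at 120 min. Over the floor lay 9, 8 and 11 members at 0 min, 13, 12 and 14 at 30 min, 15, 16 and 11 at 60 min and 22, 13 and 14 at 120 min. The background cut-off was 36, 30 and 33 counts at 60 min and 33, 24 and 28 at 120 min. In 120 min replicate 2 it lay under the lowest count over the floor (26), so all 13 members over the floor counted as above background. Of all mouse miRNAs 130 ± 15.7 were above background at 0 min (SD, n = 3), 150.3 ± 11.0 at 30 min, 150 ± 10.6 at 60 min and 187 ± 6.35 at 120 min, against 6 ± 2.65, 6 ± 1, 5 ± 1 and 11.7 ± 1.15 members. Mouse miRNA counts were 114754 to 173145 at 0 min and 250977 to 313170 at 120 min. Herpesvirus probes above background numbered 0 in each sample of 0 min, 3, 1 and 0 at 30 min, 0 in each at 60 min and 2, 3 and 4 at 120 min. The part of depth in the late values was not tested.

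**Figure D4:**
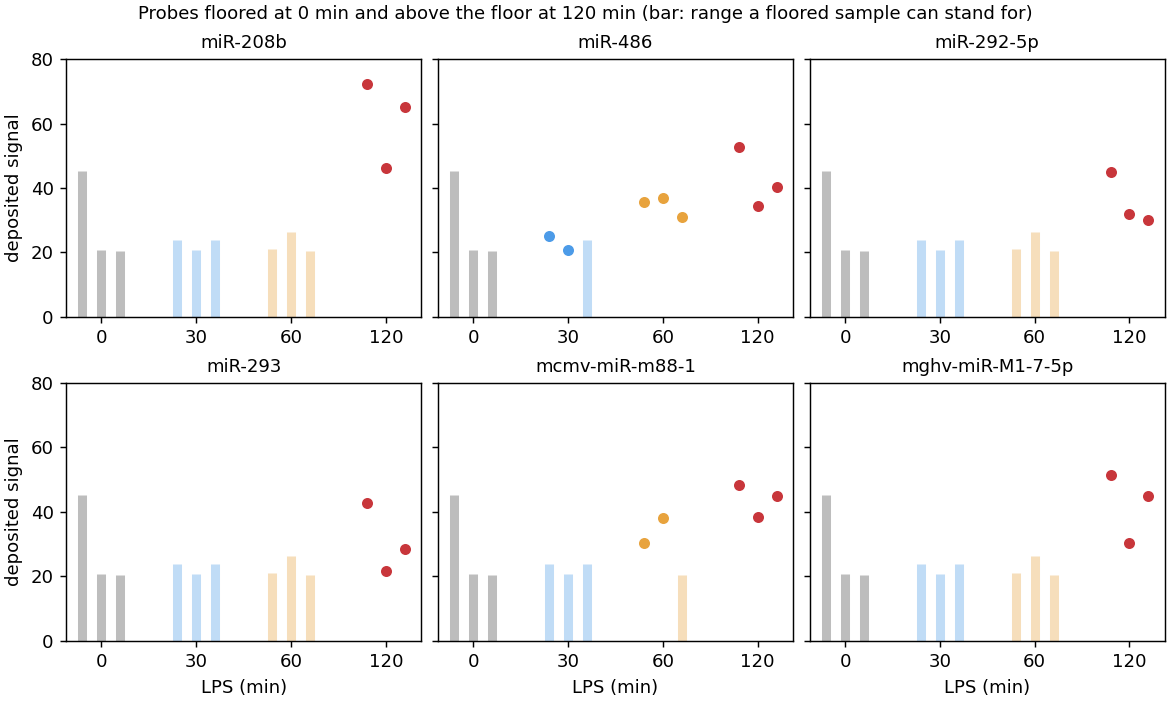
Deposited signal by minutes of LPS for the 4 markers and the 2 herpesvirus probes (lower row, centre and right) that were floored at 0 min and above the floor at 120 min; points are samples above the floor, and pale bars show the range that a floored sample can stand for. The points of miR-208b at 120 min, 46.2 to 72.3, all lie over the tallest bar at 0 min (45.3), and those of the other 5 probes reach into its range.

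A further list of 17 probes of restricted miRNAs outside the naming rule gave the same picture. Of these 9 were floored in all 12 samples, and 1 was above background in all: miR-7a, known from brain and pancreatic islets, at 453 ± 137.2 (SD, n = 12). MiR-196b, from the Hoxa cluster, averaged 56.9 ± 21.4 and miR-96, a sensory organ miRNA, 31.2 ± 9.08. None passed limma on the deposited scale: at 120 min miR-7a stood at 0.80 (adjusted p = 0.102), miR-196b at 0.84 (0.082) and miR-96 at 0.74 (0.13). Under top-100 scaling these 3 changes were 0.17, 0.22 and 0.13, and under ligation control scaling 0.18, 0.23 and 0.14. Ligation control scaling put miR-7a lower at 30 min (-0.76, limma adjusted p = 0.00498) and miR-196b lower at 30 and 60 min (-0.74 and -0.79, adjusted p = 0.0203 and 0.0162), where 49.4% and 31.3% of all tested were lower.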

How the data were processed

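MiRNAs were counted with a NanoString panel in 12 samples. The deposited signal is, from its values, counts times 1 factor per sample that gives the 4 housekeeping mRNAs a geometric mean of 9390.3 in all samples, with low entries set to 20; how the authors set it was not given in the sources used. Recovered counts were whole within 0.1 of a step for 100% of values up to 2000, and cover counting error only. Groups came from the sample titles, and 3 against 3 samples limit the precision.

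Mouse miRNAs with a mean signal above 30.5 (166 of 566) were fitted as log2(signal + 1) with limma 3.58.1 in R 4.3.3, 1 mean per time and two-sided tests. Its prior was so strong that all miRNAs share 1 variance on the deposited scale. That threshold is in raw counts of the negative controls, an unlike unit. Sums were made in Python 3.11.15 with pandas 2.3.3. The fit was checked on simulated data with 1 shared spread, no floor and no scale differences between samples. That check does not cover the effects of the floor or the scaling. Alternatives were other scalings, floors, filters and pseudocounts, limma's trend and robust settings, a replicate block and each sample left out; those with the count filter and a further choice, and top-100 scaling with a sample left out, were added after seeing the data. Members and lists were chosen with earlier results of these data known. Markers that passed the filter or were above background in at least 6 samples were given sample by sample; others are said to have been picked by their values.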

Additional observations from a re-analysis of the deposited data

Results flagged for a closer look

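Probes for herpesvirus miRNAs were not part of the comparisons, and 2 of them were above the highest negative control in all 3 samples of 120 min while floored in all 0 min samples. The probe for mcmv-miR-m88-1 of mouse cytomegalovirus averaged 43.8 ± 5.06 signal units at 120 min (SD, n = 3; 44, 48 and 60 counts), and the probe for mghv-miR-M1-7-5p of murine gammaherpesvirus averaged 42.2 ± 10.8 (47, 38 and 60 counts). Both are of the size of the late marker values, such as miR-486 at 42.4 ± 9.32 and miR-292-5p at 35.6 ± 8.14. Their cause was not tested.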

How the results depend on the processing

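The count of 0 markers passing at each time stayed 0 with a common floor, a pseudocount of 10, limma's trend or robust setting and any 1 sample left out (lowest 0, highest 0). The common floor of 45.3 lay over most values of miR-192, miR-200c and miR-128, and no value of miR-200b exceeded it. For these markers that setting could show little of a change. Other scalings changed the count of 0. Top-100 scaling gave 0, 4 and 5 at 30, 60 and 120 min, ligation control scaling 5, 5 and 5, and top-100 scaling with a common floor 1, 2 and 2. The counts of 4 and 5 include miR-200b and miR-200c, which high values at 0 min helped admit to the filter. At 120 min no filter gave 3 (miR-208b, miR-486 and miR-292-5p). All 3 were floored in every 0 min sample, which leaves no spread there, so these calls carry no weight. At 120 min the count filter gave 2, miR-208b and miR-486, which that filter admitted through 120 min. Of all miRNAs tested with it, 23.2% passed as higher. The 3 markers above background in all samples stayed 3 with any sample left out. Over all mouse miRNAs, 5, 18 and 36 passed at 30, 60 and 120 min. Top-100 scaling gave 1, 52 and 69, ligation control scaling 84 and 59 at 30 and 60 min, top-100 scaling with a common floor 17 and 50, a common floor 0, 2 and 15, and no filter 0 and 0 at 30 and 60 min. Leaving out 1 sample gave 0 to 6, 7 to 41 and 16 to 77, with the highest count at 120 min, and 37 at 60 min, without 0 min replicate 1. The sample titles do not say whether the replicate numbers pair the samples. Deviations of same-numbered samples correlated between -0.38 and 0.35 (median 0.05), which cannot decide it. The replicate block gave 0 markers at each time and 39 and 61 miRNAs at 60 and 120 min. Signs of changes that missed the threshold on the deposited scale turned in these cases (log2, 30 to 120 min). A few of the turned values passed limma. Under top-100 scaling this was miR-192 at 120 min (adjusted p = 0.0101). Under ligation control scaling it was miR-200b at 30 min (limma adjusted p = 0.014) and miR-192 at each time (0.0133, 0.0111 and 0.0313). Under top-100 scaling miR-200b was -0.12 at 30 min, miR-192 -0.18, -0.40 and -0.59, miR-199a-5p -0.010 at 60 min and miR-128 -0.16 at 120 min. Under ligation control scaling miR-200b was -0.59 at 30 min, miR-192 -0.65, -0.69 and -0.58, miR-199a-5p -0.42 and -0.30, and miR-128 -0.28, -0.25 and -0.15. Under top-100 scaling with a common floor miR-200b was -0.063 at 30 min, miR-192 -0.071 at each time, miR-199a-5p -0.010 at 60 min and miR-128 -0.043, -0.12 and -0.12. With a common floor miR-192 was -0.045 at 30 and 60 min. Leaving out 1 sample, lowest to highest at 30, 60 and 120 min, gave -0.28 to 0.39, -0.35 to 0.31 and -0.32 to 0.38 for miR-199a-3p, -0.039 to 0.47, -0.13 to 0.37 and -0.30 to 0.35 for miR-192, -0.46 to 0.058 at 30 min for miR-126-3p, -0.34 to 0.10 at 60 min for miR-200b, and -0.42 to 0.12 and -0.36 to 0.17 at 30 and 60 min for miR-200c. A scaling multiplies all probes of a sample alike, and the top-100 factors were 0.886, 1.49 and 1.61 at 0 min and 0.584, 0.955 and 1.02 at 120 min. The equal values of miR-192 under a common floor come from stimulated samples that were all raised to that floor. So do those of miR-128 at 60 and 120 min under top-100 scaling with a common floor. These equal values show no change of either level. What else lay behind these turns was not tested. MiR-200b and miR-200c were above the highest negative control in 4 of 12 samples each and miR-192 and miR-128 in 8 of 12, which limits what their changes can show.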
